A study of Homo sapiens with 6 samples.

Results

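The endothelin system in SKOV3 cells was read from 6 genes: the ligand genes EDN1 and EDN2, the receptor genes EDNRA and EDNRB, and the converting enzyme genes ECE1 and ECE2. They were chosen by their gene symbols, with the values of the si-EIF5A2 against NC contrast already known, and make up 6 of the 58825 gene identifiers in the table. The levels below are therefore a description of that contrast and carry no test for these 6 genes. Of the 6, 3 (EDN1, EDNRA and ECE1) had enough counts to enter the fit across all genes. The other 3 (EDN2, EDNRB and ECE2) stayed at or under the level that a count of 0 allows in every library.

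SKOV3 is an established human ovarian cancer cell line. The cells were transfected with an siRNA against EIF5A2 (si-EIF5A2) or with a negative control siRNA (NC), total RNA was taken at 48 h, and mRNA was sequenced in 3 libraries per group. Both groups are the same line, and a single si-EIF5A2 condition was sequenced, so its effect on the target cannot be told apart from any other effect of that siRNA. Nothing in the labels says whether the libraries of a group came from separate cultures, so p-values measure the spread between these libraries only.

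Endothelins are short vasoactive peptides that constrict vessels and can act as growth and survival signals for tumor cells. They are made as prepropeptides, cut by proprotein convertases such as furin to an inactive big endothelin, and cut once more by an endothelin-converting enzyme to the active peptide. The peptide binds the ETA receptor (EDNRA) or the ETB receptor (EDNRB), which are coupled to G proteins, and in ovarian cancer the ETA receptor has been studied as the main signaling receptor for endothelin-1.

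The active peptides of the ligand genes differ in few residues, so their coding sequences are shown to make clear which gene the counts belong to. The stretch coding for the mature peptide has 63 bases (21 residues) in both genes, and 12 bases and 2 residues differ between them. The sequences are from the GENCODE 29 transcripts EDN1-201 (bases 424 to 486) and EDN2-201 (bases 215 to 277), 5′ to 3′, with capitals where the bases of the genes differ.
EDN1: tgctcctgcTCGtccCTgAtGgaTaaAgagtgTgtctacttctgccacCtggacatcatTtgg
EDN2: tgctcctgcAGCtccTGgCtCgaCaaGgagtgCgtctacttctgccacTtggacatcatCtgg

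Depth set what could be seen. The libraries held between 46900204 and 74142267 estimated counts. Low values piled up at multiples of 3.695 counts, which was taken as the worth of 1 sequenced fragment, so the sequencing came to between 12692883 and 20065566 fragments per library. Values are given as CPM (counts per 1000000 after TMM scaling, a correction for library composition). A gene listed at 0 could still have had 3 fragments, so its level may reach 0.152 CPM (the library of most counts) to 0.236 CPM (the library of fewest), and such limits cover counting error only. The targeted gene EIF5A2 stood at 29.1 ± 1.15 CPM in NC against 3.69 ± 0.817 CPM in si-EIF5A2 (mean ± SD, n = 3 each, as in all group values below), which is 12.7% of the NC level. A gene was called when edgeR's quasi-likelihood test gave a Benjamini-Hochberg adjusted p under 0.05 and the fold change exceeded 1.5. This rule called 24.6% of the 16208 genes tested, with 11.1% higher and 13.6% lower in si-EIF5A2, and the groups did not overlap in 51.2% of all genes tested.

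EDN1 was the ligand gene above the limit for a count of 0 (ENSG00000078401, GRCh38 chr6:12290363-12297194, plus strand). It encodes endothelin-1. Its level in the NC libraries was 1.26, 1.54 and 1.94 CPM. In the si-EIF5A2 libraries it was 7.92, 5.48 and 6.55 CPM. The lowest si-EIF5A2 library thus lay above the highest NC library, and si-EIF5A2 replicate 1 was the highest of the 6. The group means were 1.58 ± 0.339 CPM for NC and 6.65 ± 1.22 CPM for si-EIF5A2, a 4.21-fold difference, and the fitted log2 fold change was 2.08 (SE 0.24). Leaving out each library in turn gave log2 fold changes of 1.93 at the lowest, with si-EIF5A2 replicate 1 left out, and 2.24 at the highest, with NC replicate 3 left out. The log2 fold change of EDN1 was higher than that of 98.9% of all genes tested. Ranks of level used mean CPM per kb of exon, over the 16176 tested genes with a known length. By that measure EDN1 was higher than 28.7% of them in NC and higher than 54.3% in si-EIF5A2.

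EDN2 (ENSG00000127129, chr1:41478775-41484673, minus strand) encodes endothelin-2. It had 4, 0 and 8 counts in the NC libraries, which corresponds to 1, 0 and 2 fragments, and 0 counts in every si-EIF5A2 library. All 6 values are at or under the limit of 3 fragments, so no fold is given and no difference was detectable at this depth.

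**Figure D1:**
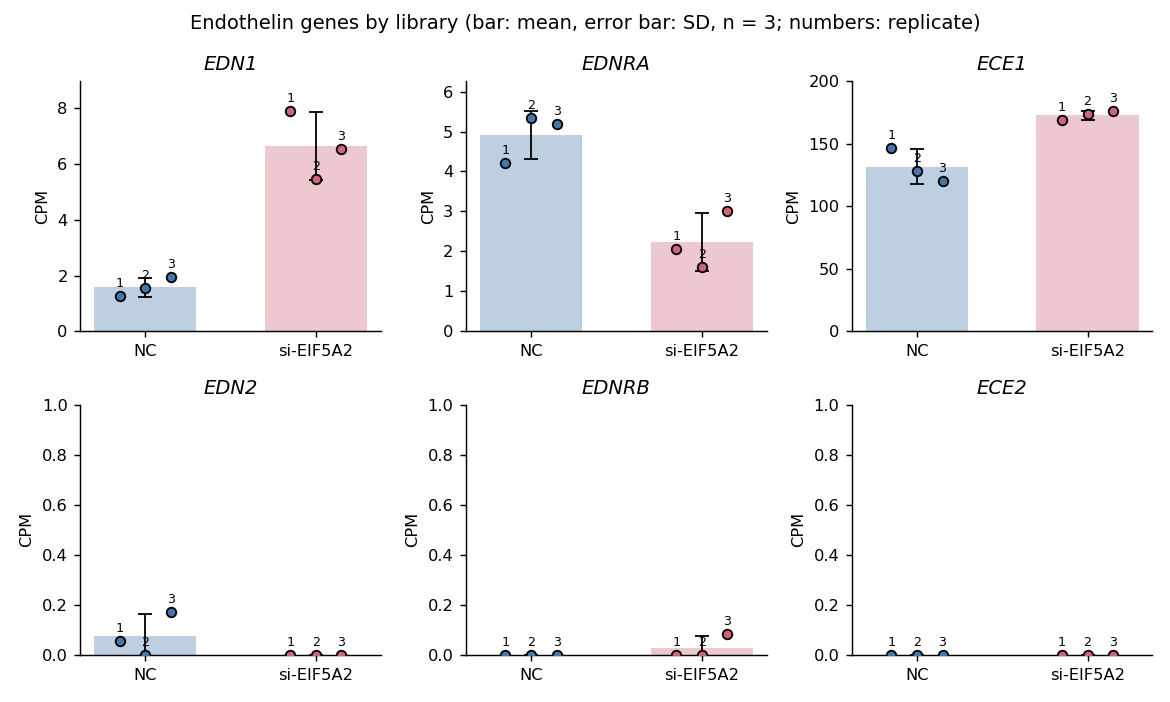
CPM of the 6 endothelin genes in each library, with bars for the group mean, error bars for the SD (n = 3) and points numbered by replicate; each panel has its own linear axis from 0. EDN1 lay between 1.26 and 1.94 CPM in NC and between 5.48 and 7.92 CPM in si-EIF5A2, EDNRA was lower and ECE1 higher in every si-EIF5A2 library than in any NC library, and EDN2, EDNRB and ECE2 stayed near 0.

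EDNRA was the receptor gene above that limit (ENSG00000151617, chr4:147480917-147544954, plus strand), and it moved the opposite way to EDN1. It encodes the ETA receptor, which binds endothelin-1 and endothelin-2. Its level in the NC libraries was 4.22, 5.34 and 5.19 CPM. In the si-EIF5A2 libraries it was 2.07, 1.61 and 3.02 CPM. The highest si-EIF5A2 library, replicate 3, lay below the lowest NC library, replicate 1. The group means were 4.92 ± 0.606 CPM for NC and 2.24 ± 0.721 CPM for si-EIF5A2, which is 45.5% of NC, and the fitted log2 fold change was -1.14 (SE 0.26). Leaving out each library in turn gave -1.42 (without si-EIF5A2 replicate 3) to -0.95 (without si-EIF5A2 replicate 2). The fold change of EDNRA was nearer to the middle of the table than that of EDN1, since 10.1% of all genes tested had a lower log2 fold change.

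EDNRB (ENSG00000136160, chr13:77895481-77975529, minus strand) encodes the ETB receptor, which binds the endothelins with like affinity and also clears them from the circulation. It had 0 counts in 5 libraries and 4 counts, about 1 fragment, in si-EIF5A2 replicate 3. The receptor transcript detected above the limit for a count of 0 was thus that of EDNRA in both groups.

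Both EDN1 and EDNRA rest on few fragments, so the counting error was set beside the spread between libraries. EDN1 had 25, 29 and 25 fragments in NC and 110, 77 and 85 in si-EIF5A2. EDNRA had 83, 102 and 66 fragments in NC and 29, 23 and 39 in si-EIF5A2. For EDN1 the highest upper bound among the NC libraries (2.9 CPM, exact 95% Poisson interval) lay below the lowest lower bound among the si-EIF5A2 libraries (4.3 CPM). For EDNRA the intervals overlapped between si-EIF5A2 replicate 3, which reached up to 4.11 CPM, and NC replicates 1 and 3, which reached down to 3.35 and 4.01 CPM.

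**Figure D2:**
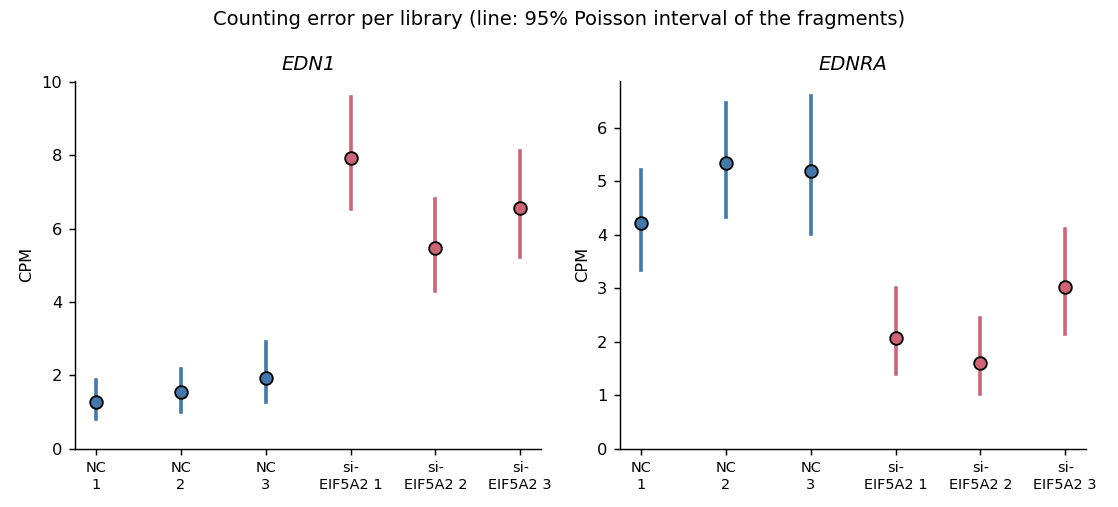
CPM of EDN1 (left) and EDNRA (right) in each library (points) with the 95% Poisson interval of its fragments (lines), on linear axes from 0; NC is blue and si-EIF5A2 is red. The EDN1 intervals of the groups are apart (up to 2.9 CPM in NC, from 4.3 CPM in si-EIF5A2), and the EDNRA intervals of NC replicates 1 and 3 overlap that of si-EIF5A2 replicate 3.

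ECE1 was the most abundant of the 6 genes (ENSG00000117298, chr1:21217247-21345572, minus strand). It encodes endothelin-converting enzyme 1, a membrane metalloprotease that makes the active peptide from big endothelin. Its level in the NC libraries was 147, 128 and 120 CPM. In the si-EIF5A2 libraries it was 169, 174 and 176 CPM. The groups did not overlap, and the NC libraries were spread more widely than the si-EIF5A2 libraries. The means were 132 ± 13.8 CPM for NC and 173 ± 3.8 CPM for si-EIF5A2, a 1.31-fold difference with a log2 fold change of 0.39 (SE 0.09), which is under the fold limit of 1.5. Leaving out each library in turn gave 0.32 (without NC replicate 3) to 0.48 (without NC replicate 1). In annotation, 240 bases of its exons lie opposite a gene on the other strand, and whether the counting used strand is not given in the sources used here.

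ECE2 (ENSG00000145194, chr3:184276011-184293031, plus strand) encodes the related endothelin-converting enzyme 2. It was listed at 0 counts in all 6 libraries. Of its exon bases, 62.7% are shared on the same strand with the read-through gene EEF1AKMT4-ECE2, whose counts could take fragments from it, and that gene was also at 0 in all 6 libraries.

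Over the 3 genes tested, 2 were called (EDN1 higher, EDNRA lower) and 3 had groups that did not overlap. These counts stand beside the shares of all genes given above (24.6% called, 51.2% not overlapping), and nothing is read from them because the genes were chosen with this contrast known. In bulk RNA, fewer cells expressing a gene and less RNA of it per cell cannot be told apart.

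To compare levels between genes, CPM was divided by the length of the gene's exons. In NC the order was ECE1, EDNRA, EDN1, with 18.0 ± 1.88, 1.16 ± 0.143 and 0.776 ± 0.167 CPM per kb. In si-EIF5A2 it was ECE1, EDN1, EDNRA, with 23.6 ± 0.518, 3.27 ± 0.602 and 0.527 ± 0.17 CPM per kb. The ligand transcript therefore stood below the receptor transcript in NC and above it in si-EIF5A2. The ratio of EDN1 to EDNRA per kb was 0.623, 0.601 and 0.777 in NC, against 7.96, 7.1 and 4.51 after si-EIF5A2. The ratio of ECE1 to EDN1 per kb was 32.4, 23.1 and 17.2 in NC and 5.91, 8.82 and 7.46 in si-EIF5A2, so the enzyme transcript stayed above the ligand transcript in each of the 6 libraries. The level of ECE1 depends on the length used: with its longest transcript in place of all its exons it was 25.9 CPM per kb in NC, and the order of the 3 genes was the same.

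**Figure D3:**
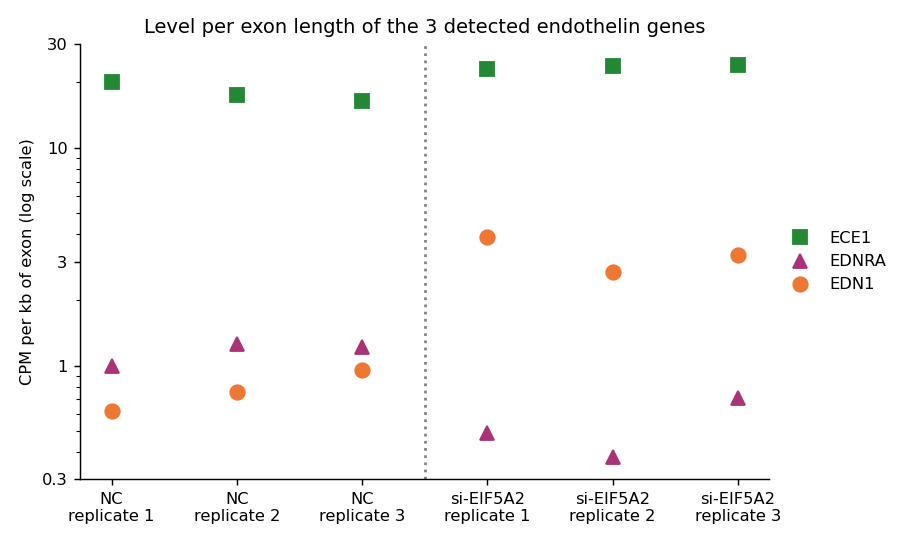
CPM per kb of exon, on a log axis, of ECE1 (squares), EDN1 (circles) and EDNRA (triangles) in each of the 6 libraries. ECE1 is highest in every library, EDNRA lies above EDN1 in the 3 NC libraries, and EDN1 lies above EDNRA in the 3 si-EIF5A2 libraries.

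Other genes of peptide maturation and breakdown were read from a list of 12, which holds the third endothelin ligand, proprotein convertases and related peptidases. Of these, 6 were tested, 0 rose and 2 fell (33.3% called, beside 24.6% of all genes tested and 13.6% called lower), and the median log2 fold change was -0.18 against -0.01 over all genes tested. EDN3, the remaining ligand gene, was at 0 in every library. FURIN, the convertase that cuts proendothelin, was at 112 ± 11.8 CPM in NC, against 95.6 ± 3.63 CPM in si-EIF5A2 (log2 fold change -0.23, SE 0.09, edgeR adjusted p = 0.0815). MME (neprilysin), which degrades endothelins among other peptides, was among the abundant genes of the list at 485 ± 13.1 and 500 ± 21.7 CPM (log2 fold change 0.04, SE 0.07). CTSA, a lysosomal carboxypeptidase that can inactivate endothelin-1, was at 278 ± 32.6 and 255 ± 21.1 CPM. PCSK5, another proprotein convertase, fell from 3.96 ± 0.215 to 1.62 ± 0.542 CPM (log2 fold change -1.29, SE 0.28, edgeR adjusted p = 0.00844). PHEX, a peptidase of the neprilysin family known for phosphate regulation, fell from 3.31 ± 0.444 to 1.12 ± 0.44 CPM (log2 fold change -1.56, SE 0.31, edgeR adjusted p = 0.00586).

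The next list held 27 G proteins and effectors downstream of the endothelin receptors. Of these, 25 were tested, 8 rose and 2 fell, with a median log2 fold change of 0.02. That is 40% called, beside 24.6% of all genes tested, of which 11.1% were higher and 13.6% lower. Both Gq family genes on the list rose. GNAQ went from 30.1 ± 0.913 to 54.4 ± 4.04 CPM (log2 fold change 0.85, SE 0.09), and GNA11 from 44.6 ± 4 to 92.3 ± 7.06 CPM (1.05, SE 0.10). PLCB4, a phospholipase C that Gq activates, rose from 2.46 ± 0.0928 to 12.3 ± 1.63 CPM, which is the widest difference of the list at a log2 fold change of 2.32 (SE 0.16, edgeR adjusted p = 2.8e-05). PLCB2, of the same family, rose from 18.1 ± 0.963 to 30.3 ± 2.66 CPM (log2 fold change 0.74). Its other members did not rise and were not called. PLCB3 was at 88.6 ± 3.78 and 72.7 ± 4.54 CPM (-0.29, SE 0.08), and PLCB1 at 2.66 ± 0.546 and 2.44 ± 0.79 CPM (-0.12, SE 0.31). ITPR2, a calcium channel opened by the inositol trisphosphate that phospholipase C makes, rose from 3.82 ± 0.464 to 9.95 ± 1.28 CPM (1.38), while ITPR3 was at 302 CPM in NC, against 301 CPM in si-EIF5A2.

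Of the protein kinase C genes on the list, PRKCA and PRKCD were called, in opposite directions. PRKCE (log2 fold change -0.21, SE 0.10) and PRKCH (-0.98, SE 0.37) were not called, and PRKCB and PRKCZ had too few counts to be tested. PRKCA fell from 181 ± 4.8 to 99.2 ± 1.16 CPM (log2 fold change -0.87, SE 0.06), and PRKCD rose from 68.3 ± 2.16 to 106 ± 4.15 CPM (0.63, SE 0.07). On the branch to RHOA, GNA12 rose from 149 ± 4.07 to 287 ± 6.16 CPM (0.94, SE 0.06) and the exchange factor gene ARHGEF12 fell from 67.2 ± 2.98 to 41.5 ± 1.46 CPM (-0.69, SE 0.08). RHOA itself was at 789 ± 28.9 and 780 ± 29.7 CPM (-0.02, SE 0.07). The inhibitory G protein gene GNAI2 rose from 439 ± 7.76 to 666 ± 29.8 CPM (0.60, SE 0.07), close to the fold limit, and was not called without si-EIF5A2 replicate 2 (0.57). GNAS, the stimulatory G protein gene, was at 1050 ± 35.8 and 704 ± 66.9 CPM (-0.58, SE 0.08), just inside the fold limit. It was called without NC replicate 3 (-0.61), without si-EIF5A2 replicate 1 (-0.62) or without si-EIF5A2 replicate 2 (-0.62).

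Kinases, arrestins and RGS proteins that switch off signaling from such receptors made up a list of 11 genes. All 11 were tested, 1 rose and 1 fell (18.2% called, beside 24.6% of all genes tested), and the median log2 fold change was -0.23. GRK2, a kinase that desensitizes the ETA receptor, was at 63.9 ± 3.69 CPM in NC, against 53.3 ± 8.04 CPM in si-EIF5A2 (-0.26, SE 0.12). RGS3, which speeds up the inactivation of G proteins, rose from 107 ± 4.05 to 186 ± 18.1 CPM (0.80, SE 0.09, edgeR adjusted p = 0.000291). RGS2, an inhibitor of Gq signaling, fell from 1.97 ± 0.475 to 0.944 ± 0.0709 CPM (-1.06, SE 0.29, edgeR adjusted p = 0.0237). The RGS2 call rests on 98 fragments in NC and 38 in si-EIF5A2. It was lost without NC replicate 2 (-1.07), NC replicate 3 (-0.87), si-EIF5A2 replicate 2 (-1.05) or si-EIF5A2 replicate 3 (-1.01).

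EDN1 is known to be controlled mainly at transcription, through AP-1, GATA, hypoxia and SMAD elements in its promoter. The 250 bases before the RefSeq start site nearest to the annotated gene start, 1 of 3 listed for EDN1, are shown for that reason (GRCh38.p14, chr6:12290111-12290360, plus strand). Capitals mark the letters found by a search for TGACTCA or TGACTAA (AP-1), GATAA and ACGTG (the core of a hypoxia response element) on both strands and for TATAAA on the plus strand.
EDN1 promoter: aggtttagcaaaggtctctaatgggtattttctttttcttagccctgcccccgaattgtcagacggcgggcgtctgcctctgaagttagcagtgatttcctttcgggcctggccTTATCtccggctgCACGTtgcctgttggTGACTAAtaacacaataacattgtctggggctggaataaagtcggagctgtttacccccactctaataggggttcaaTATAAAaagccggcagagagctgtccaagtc

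In this window TTATC, the reverse complement of GATAA, lies at -136 to -132 from the start site, CACGT at -123 to -119, TGACTAA at -108 to -102 and TATAAA at -31 to -26. No motif overlaps another. Among 35116 promoter windows of this length, 5.7% hold the AP-1 letters, 20.4% GATAA, 18.5% ACGTG and 6.8% TATAAA. The EDNRA window of the same length held 0 of these motifs. A match is a description of the letters and not of binding, which was not measured.

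Of 16 genes for factors known to act on EDN1 transcription, 15 were tested, 4 rose and 2 fell, with a median log2 fold change of 0.04. That is 40% called, beside 24.6% over all genes (11.1% higher, 13.6% lower). Of the AP-1 genes, FOS rose from 1.38, 1.21 and 1.96 CPM in NC to 9.58, 11.1 and 6.84 CPM in si-EIF5A2 (log2 fold change 2.60, SE 0.26, edgeR adjusted p = 0.000192). JUN, its partner, was at 434 ± 15.7 CPM in NC, against 292 ± 9.19 CPM in si-EIF5A2 (-0.57, SE 0.07), just inside the fold limit, and was called lower without NC replicate 3 (-0.60) or without si-EIF5A2 replicate 3 (-0.60). GATA2 was at 12.8 ± 1.01 and 13.2 ± 1.26 CPM (0.04, SE 0.13).

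Of the hypoxia factors, HIF1A was at 101 ± 2.86 and 84.7 ± 6.64 CPM (-0.26, SE 0.08) and EPAS1 at 46.3 ± 1.37 and 62.1 ± 3.25 CPM (0.43, SE 0.08), neither called, while their partner ARNT rose from 24.9 ± 0.218 to 38.8 ± 0.605 CPM (0.64, SE 0.08). SMAD3, which carries TGF-beta signals to the EDN1 promoter, fell from 123 ± 5.96 to 69.2 ± 1.07 CPM (-0.83, SE 0.07), and FOXO1 fell from 12.7 ± 1.51 to 6.27 ± 0.644 CPM (-1.02, SE 0.15). KLF2, which lowers EDN1 in endothelial cells, rose from 30.5 ± 4.75 to 53.4 ± 0.88 CPM (0.81, SE 0.12).

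NFKB1, a subunit of NF-kappaB, rose from 74.6 ± 1.17 to 113 ± 3.01 CPM (0.60, SE 0.07), close to the fold limit, and was not called without NC replicate 2 (0.58) or without si-EIF5A2 replicate 3 (0.57). RELA, the other subunit gene on the list, was at 130, 185 and 98.5 CPM in NC and 181, 192 and 146 CPM in si-EIF5A2 (0.33, SE 0.24). The groups of RELA overlapped, and it was called higher without NC replicate 2 (0.60).

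**Figure D4:**
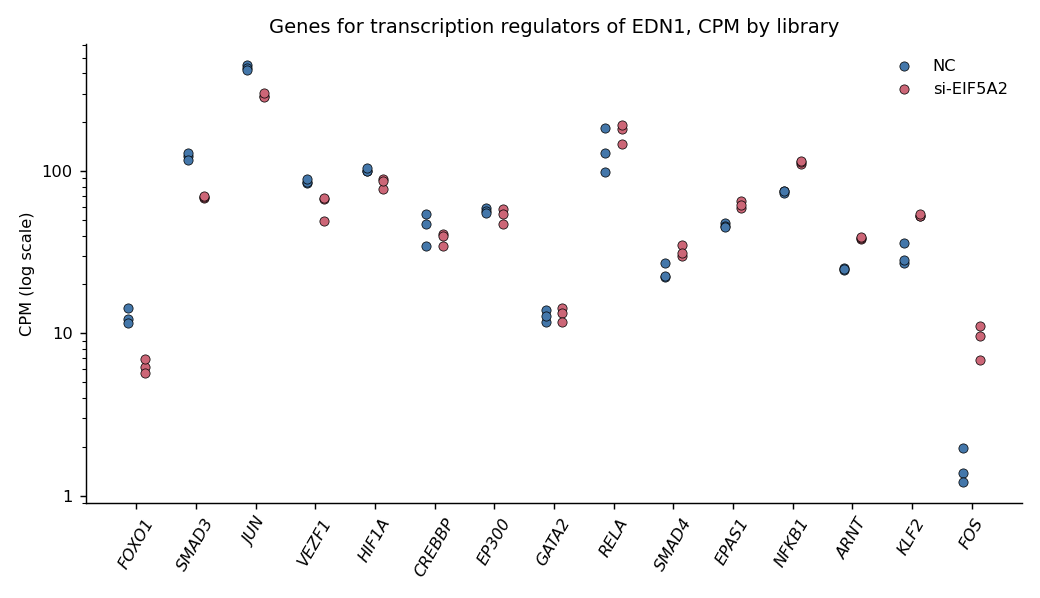
CPM, on a log axis, of the 15 tested genes for transcription regulators of EDN1 in each library (blue, NC; red, si-EIF5A2; 3 points each), ordered by log2 fold change. Of the called genes, FOXO1 and SMAD3 lie lower and NFKB1, ARNT, KLF2 and FOS higher in si-EIF5A2, with FOS near 1 to 2 CPM in NC and 6.84 to 11.1 CPM in si-EIF5A2. The groups of JUN, HIF1A and VEZF1 (lower) and of EPAS1 and SMAD4 (higher) were also apart, without a call. Groups did not overlap in 11 of the 15 genes, beside 51.2% of all genes tested.

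The 5 genes with the profile most like that of EDN1 were DSE, CD274, BIRC3, IFI44 and ADAMTS1. Likeness was the root mean square distance between log2 CPM profiles, each centred on its own mean over the 6 libraries, among the 8843 genes that averaged 10 CPM or more. The distance was 0.113 for DSE, an epimerase that makes dermatan sulfate, 0.146 for CD274, which encodes PD-L1, 0.149 for BIRC3, an inhibitor of apoptosis, 0.149 for IFI44, an interferon-induced gene, and 0.176 for ADAMTS1, a secreted metalloprotease. Their log2 fold changes ran from 2.03 (ADAMTS1) to 2.24 (CD274), beside 2.08 for EDN1. These genes were picked for this pattern, so their values are a description with no test.

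Other vasoactive peptide systems were compared with the endothelin genes from lists of 16 peptide and 19 receptor genes. Of the peptide genes 6 were tested, 0 rose and 3 fell: APLN, NMU and RLN2 (50% called, beside 24.6% of all genes and 13.6% called lower). APLN (apelin) fell from 14 ± 1.49 to 5.88 ± 0.418 CPM (log2 fold change -1.26, SE 0.14, edgeR adjusted p = 0.000293). NMU (neuromedin U) fell from 2.41, 2.53 and 2.06 CPM to 0.215, 0.613 and 0.188 CPM, or from 122 to 14 fragments over the groups, a ratio of 0.145 with a 95% counting interval of 0.0769 to 0.252. CALCB, a calcitonin gene-related peptide gene, had 43 and 11 fragments, a ratio of 0.323 (95% counting interval 0.15 to 0.636), and was not called (edgeR adjusted p = 0.0632). RLN2 (relaxin 2) had 22, 21 and 16 counts in NC and 0 in every si-EIF5A2 library, at least 1.42-fold lower against the floor of 3 fragments per library. That bound is under the fold limit of 1.5, so the RLN2 call would not hold at it. RLN2 entered the fit through its NC counts only, and neither NMU nor CALCB would have entered it on its si-EIF5A2 counts. The share called and the median of this list thus depend in part on the filter, and nothing is read from them. The median log2 fold change of the 6 genes was -1.47 as fitted and -0.88 with RLN2 at that bound. ADM (adrenomedullin) was at 15.2 ± 0.761 and 21.5 ± 2 CPM (0.51, SE 0.11), under the fold limit. ADM2, a related peptide gene, was at 71.3, 72.9 and 64.2 CPM in NC and 43.9, 87.3 and 86.5 CPM in si-EIF5A2, where replicate 1 stood below all the others.

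Of the receptor genes 7 were tested, 4 rose and 0 fell, with a median log2 fold change of 0.89 (57.1% called, beside 24.6% of all genes and 11.1% called higher). AGTR1 and NPR1 would not have entered the fit on their NC counts, nor NPR2 and CALCRL on their si-EIF5A2 counts. The share called and the median of this list thus depend in part on the filter, and nothing is read from them. OXTR (oxytocin receptor) rose from 2.83 ± 0.273 to 5.27 ± 0.197 CPM (0.89, SE 0.17, edgeR adjusted p = 0.00417), and NPR3, a clearance receptor for natriuretic peptides, from 0.45 ± 0.0631 to 2.3 ± 0.483 CPM (2.34, SE 0.31). AGTR1, the angiotensin II receptor gene, rose from 9 fragments over the NC libraries to 41 over the si-EIF5A2 libraries, a ratio of 5.75 after scaling for depth (95% counting interval 2.75 to 13.4). NPR2, another natriuretic peptide receptor gene, had 39 and 11 fragments, a ratio of 0.356 (95% counting interval 0.164 to 0.708), with groups that did not overlap, and was not called (log2 fold change -1.50, SE 0.61, edgeR adjusted p = 0.094). With the threshold of the study's methods, unadjusted p under 0.05 and fold over 2, 3 receptor genes were higher and 1 lower. NPR1, a guanylate cyclase receptor for natriuretic peptides, had 9 and 25 fragments (log2 fold change 1.70, SE 0.54, edgeR adjusted p = 0.0396). The NPR1 call was lost when any of the 6 libraries was left out (lowest 1.58, for si-EIF5A2 replicate 2; highest 1.86, for NC replicate 3).

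Because endothelin genes are also expressed by vessel, mural and pigment cells, markers of these cells were read in the same libraries. The summed level of 10 endothelial markers was 433 to 477 CPM in NC and 327 to 347 CPM in si-EIF5A2. Nearly all of it was TIE1 (340 and 267 CPM) and ROBO4 (95.2 and 60.9 CPM). ESAM was at 10.3 and 8.97 CPM, and PECAM1 at 1.87 and 0.318 CPM. VWF (0.235 and 0.162 CPM), KDR (0.0376 and 0.0766 CPM) and EMCN (0 in all libraries) were at or near 0. So were TEK (0.196 and 0.181 CPM), FLT1 (0.0554 and 0.248 CPM) and CLDN5 (0 and 0.0522 CPM). Of the 10 endothelial markers 6 were tested and 1 was called, ROBO4, lower in si-EIF5A2 (16.7%, beside 13.6% of all genes called lower). The summed level of 6 mural markers was 1.66 to 2.51 CPM in NC and 0.917 to 1.25 CPM in si-EIF5A2. Of the 6, 2 were tested and 1 was called lower (50%, beside 24.6% of all genes called and 13.6% called lower). This was PDGFRB, at 0.601 and 0.0278 CPM. Its si-EIF5A2 counts were 0, 0 and 4, under the limit of 3 fragments, so it entered the fit through its NC counts only. The sum of 5 melanocyte markers was 0.0766 to 0.808 CPM and that of 4 leukocyte markers 0.192 to 0.548 CPM over all libraries, with MLANA, DCT, PTPRC and CD3E at 0.

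Of 11 epithelial and ovarian cancer markers 9 were tested and 3 were called, all lower (33.3%, beside 24.6% of all genes called and 13.6% called lower). Their levels were uneven. KRT18 (418 and 396 CPM) and ERBB2 (45.9 and 45.4 CPM) were not called, while KRT8 fell from 608 to 377 CPM, KRT7 from 382 to 209 CPM and PAX8 from 106 to 61 CPM. CDH1 (0.663 and 0.388 CPM), EPCAM (1.55 and 1.37 CPM), KRT19 (3.22 and 2.46 CPM) and WT1 (2.36 and 3.05 CPM) were low and not called. MUC16 was at 0 in all libraries and MUC1 was at 0.066 CPM in NC and 0 in si-EIF5A2. KRT8, KRT7 and PAX8, like the summed endothelial and mural levels, were lower in the libraries where EDN1 was higher and EDNRA lower, and their part in those differences was not tested.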

How the data were processed

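Total RNA of SKOV3 cells was sequenced as 2 × 150 bp pairs. The authors quantified transcripts with StringTie and ballgown. They deposited a table of estimated counts, 1 row per gene, without normalization. Rounding changed nothing. The submitters' processing notes also name Bowtie 0.12.2 and mouse builds, with no role; the aligner and human build are not given in the sources used here. Groups came from the sample titles, and 0 columns were left unmapped. The 48 h time comes from the series description.

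Counts were fitted with edgeR 4.0.16 (R 4.3.3): filterByExpr, TMM, robust quasi-likelihood, condition only, Benjamini-Hochberg over 16208 genes. The SE is the log2 fold change over the square root of F. Positions, lengths and overlaps are from GENCODE 29, promoters from RefSeq. The steps were tested on simulated counts.

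The genes and lists were chosen with earlier results of these data known. Named are the 6 genes, EIF5A2, list genes called or with a mean of at least 1 CPM and a role in the description, and the 5 genes most like EDN1. Low-count markers, peptide and receptor genes outside this were named after their values were seen. Alternatives included DESeq2 1.42.0, other scalings, filters, thresholds, a replicate block and leaving out each library. The rules for a closer look do not apply to groups of 3, so no result here could have met them.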

Additional observations from a re-analysis of the deposited data

How the results depend on the processing

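EDN1 and EDNRA kept their direction and their side of the call rule under all 15 alternatives tried for each. The number of endothelin genes called was 2 in every setting except with no limit on the fold change, where ECE1 made it 3. Over all genes, 3992 were called as reported, 4344 with DESeq2, 5974 with no fold limit and 2370 with the threshold of the study's methods (unadjusted p under 0.05 and fold over 2), under which 36.8% of the calls were higher against 44.9% as reported. That threshold also left 2 of 15 EDN1 regulators, 1 of 11 desensitization genes and 3 of 25 G proteins or effectors called. These stand beside 2370 of the 16208 genes tested. No fold limit gave 11 of 15 EDN1 regulators, beside 5974 of the 16208 genes tested. With at least 10 counts in every library 1 other vasoactive peptide gene was called, beside 3925 of the 14118 genes then tested. Leaving out each library gave 3638 to 3907 calls over all genes and 1 to 3 in the desensitization list (1 without NC replicate 3 or si-EIF5A2 replicate 2, 3 without NC replicate 1).

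Replicate numbers did not pair the libraries: the deviations of libraries with the same number correlated at -0.024, 0.005 and -0.003, and 0 of the 6 libraries correlated best with their own number. With a replicate block 3731 genes were called, 1 of them in the desensitization list, and RGS2 (-1.03) and NPR1 (1.69) were not called.

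The alternatives that kept the call rule were followed for 26 called list genes (RLN2 left out). Of these genes, 22 were called in every such alternative that gave a value. The exceptions were GNAI2, NFKB1, RGS2 and NPR1. Single genes were not followed through the changed thresholds. Called genes of smaller fold change, such as GNAQ (0.85) and ARNT (0.64), fall short of the fold limit of the study's methods. Some genes not called changed sign when a library was left out: ADM2 ranged from -0.09 to 0.32, ARRB1 from -0.32 to 0.09, GATA2 from -0.03 to 0.11 and RHOA from -0.05 to 0.01. The level of ECE1 per length was 25.9 CPM per kb in NC with its longest transcript. The depth limits EDN2, EDNRB and ECE2, which could lie anywhere below their floor.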
